A study of Homo sapiens with 24 samples.

Results

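The semaphorins, plexins, netrins, slits and their receptors guide growing axons, and 48 genes of these families were followed here while H1 cells were turned towards a neural fate over 72 h. The genes were those with annotated symbols of the SEMA3 to SEMA7, PLXNA to PLXND, UNC5A to UNC5D, ROBO1 to ROBO4, SLIT1 to SLIT3 and NTN1 to NTN5 series, plus NRP1, NRP2, DCC and NEO1. They made up 48 of 17760 named genes on the array and were represented by 72 measurements, some of them repeats of identical values. Each gene was read from its brightest measurement, by mean over the 24 arrays. For 12 genes the value used was repeated over several probes. Of the 48 genes, 26 lay above background on at least 4 of the 24 arrays and were tested, and 22 stayed too dim. UNC5CL came in by its symbol, which begins like that of UNC5C, and it stayed dim.

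The H1 line consists of human embryonic stem cells, and dorsomorphin (compound C) blocks type I BMP receptors and AMPK. Total RNA of treated H1 cells was taken at 0, 12, 24, 36, 48 and 72 h and hybridised to Illumina bead arrays, with 4 arrays at each time. Before treatment the cells were grown on Matrigel in mTeSR, a stem cell medium, and at confluency this was exchanged for a medium with serum replacement that was renewed daily. All later groups therefore share both the compound and the new medium, and no untreated cells of a later time were analysed here, so time, medium and compound cannot be told apart. The labels do not say that the 4 replicates were separate cultures, so p-values reflect array-to-array spread only, and that spread may be technical. The RNA is that of whole cultures, in which fewer cells of a type and less RNA per cell cannot be told apart.

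In background, semaphorins are secreted or membrane-bound ligands that mostly repel growth cones through plexin receptors. Most of the secreted class 3 members need a neuropilin as co-receptor. Netrins attract through DCC and neogenin and repel through UNC5 receptors, and slits repel through ROBO receptors. In the early embryo the same molecules also act on cell adhesion, migration and vessel growth, before any axon forms.

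The labelled course was checked on known genes. At 72 h against 0 h the stem cell factor POU5F1 fell by 1.81 ± 0.11 (SE) on the log2 scale and NANOG fell at least 3.63-fold, while SOX2, a factor of both stem cells and neural plate, and the neural factors SOX21 and PAX6 rose by 1.13 ± 0.17, 3.82 ± 0.21 and 3.12 ± 0.27, PAX6 from a 0 h level that only 1 array showed above background. Of 7 measured pluripotency markers, SOX2 among them, 4 were lower and 2 higher at 72 h. Of 8 neural plate markers, 5 were higher and 0 lower in limma, and SOX1 and ZIC1 were never above background. Of 9 measured markers of postmitotic neurons, 4 were bright enough to test, and 0 of these passed the test in limma at 72 h in either direction, with 0 higher and 1 lower at an unadjusted p under 0.05. The summed log2 signal of the 9 ran from 69.3 to 70.5 at 0 h and from 68.9 to 70.6 at 72 h, with ELAVL4, SNAP25, TBR1 and ISL1 never above background. All 4 measured mesoderm markers were likewise never above background, and so were 4 of 6 endothelial markers, whereas TEK was higher and KDR lower at 72 h. Of 6 neural crest markers SOX10 was higher and FOXD3 lower, and of 5 endoderm markers CXCR4 was higher and the other 4 were never above background. The part of other cell types in the results was not tested. Arrays of the same time correlated at r of 0.975 to 0.992 across the 10215 genes tested. In 6 arrays, 1 of each time, the deviations from the time means were alike, with correlations of at least 0.26 among them and at most 0.18 with other arrays of other times. They were replicate 2 at 0, 24 and 72 h and replicate 4 at 12, 36 and 48 h. They were picked out after the values were seen.

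The bases just upstream of the transcription start are shown for SEMA5B and UNC5A, which rose, and for SLIT2 and SEMA4A, which fell, since the study's title concerns DNA methylation and each pair holds a window poor and a window rich in CG. The capitals mark CG dinucleotides, the sites that DNA methylation acts on. Each window holds the 250 bases before the start in RefSeq on GRCh38.p14, read 5′ to 3′ on the gene's strand. SEMA5B lies at chr3:123028606-123028855 on the minus strand, UNC5A at chr5:176810309-176810558 on the plus strand, SLIT2 at chr4:20251655-20251904 on the plus strand and SEMA4A at chr1:156149694-156149943 on the plus strand.
SEMA5B: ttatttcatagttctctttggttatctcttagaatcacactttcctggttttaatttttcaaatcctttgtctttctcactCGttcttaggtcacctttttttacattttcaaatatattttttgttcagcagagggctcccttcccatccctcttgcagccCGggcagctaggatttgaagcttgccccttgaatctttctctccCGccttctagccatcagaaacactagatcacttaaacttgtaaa
UNC5A: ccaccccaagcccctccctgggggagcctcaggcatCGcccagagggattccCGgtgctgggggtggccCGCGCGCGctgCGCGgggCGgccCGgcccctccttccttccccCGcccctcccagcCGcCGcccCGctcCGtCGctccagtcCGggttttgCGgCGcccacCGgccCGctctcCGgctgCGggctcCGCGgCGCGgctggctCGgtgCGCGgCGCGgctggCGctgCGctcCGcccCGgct
SLIT2: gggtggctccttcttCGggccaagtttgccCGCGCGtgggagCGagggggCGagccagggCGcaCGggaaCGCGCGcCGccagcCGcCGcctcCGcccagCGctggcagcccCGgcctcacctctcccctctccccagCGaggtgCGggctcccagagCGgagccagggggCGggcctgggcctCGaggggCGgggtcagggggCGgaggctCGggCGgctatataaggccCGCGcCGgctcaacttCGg
SEMA4A: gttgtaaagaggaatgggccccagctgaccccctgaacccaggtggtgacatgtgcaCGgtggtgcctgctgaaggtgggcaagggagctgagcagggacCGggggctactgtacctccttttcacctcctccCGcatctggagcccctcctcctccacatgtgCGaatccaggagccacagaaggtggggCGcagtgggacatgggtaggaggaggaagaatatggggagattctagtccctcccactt
The SEMA5B window held 3 CG and the SEMA4A window 5, whereas the UNC5A window held 36 and the SLIT2 window 30. Over all 27305 windows in the table the median was 11 CG, with quartiles at 3 and 23. No methylation was measured on these arrays.

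The 22 dim genes were SEMA3B, SEMA3C, SEMA3D, SEMA3G, SEMA4G, SEMA5A, SEMA6D, SEMA7A, NTN4, NTN5, SLIT1, SLIT3, PLXNA2, PLXNA4, PLXNB3, PLXNC1, UNC5C, UNC5CL, ROBO1, ROBO2, ROBO4 and DCC. Background was set at a log2 signal of 7.10, the 99th percentile of 387 measurements of olfactory receptor genes, a family taken as silent in these cells. The dim genes had values between 6.06 and 7.35, with a median of 6.65. Of them, 16 lay above background on 0 arrays, SEMA3C and UNC5CL on 3 arrays each, and SEMA4G, SEMA6D, SLIT3 and UNC5C on 1 array each. DCC, the attractive netrin receptor, and ROBO1 and ROBO2, the main slit receptors, were thus not detectable above this background at any time, although their ligands NTN1 and SLIT2 were measured. A dim signal sets only an upper bound, and a poorly binding probe cannot be told from a silent gene.

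By family, 12 of 20 semaphorins, 5 of 9 plexins, 3 of 5 UNC5 genes, 1 of 4 ROBO genes, 1 of 3 netrins, 1 of 3 slits, 1 of DCC and NEO1, and both neuropilins were tested. The tested genes with the fewest arrays above background were UNC5B with 9, PLXND1 with 13, SEMA6C with 14 and NRP2 with 17. Next came NRP1 and SLIT2 with 21, NTN1 with 22 and PLXNA3 with 23. The other 18 tested genes lay above background on all 24 arrays.

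**Figure D1:**
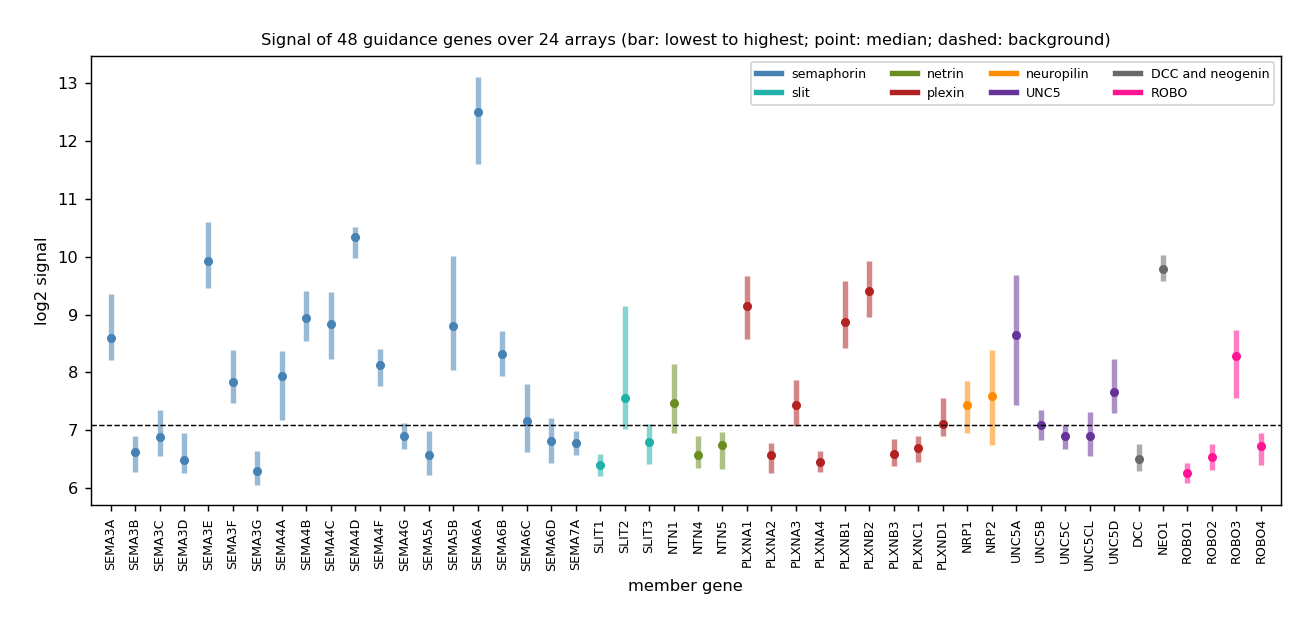
Log2 signal of the 48 guidance genes over the 24 arrays; the bar runs from the lowest to the highest value, the point is the median and the dashed line the background of 7.10. The 22 dim genes reach at most 7.35, and 18 genes stay above the line on all arrays. Signals of different genes come from different probes and do not rank the genes by transcript level.

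Against 0 h, 21 of the 26 tested genes passed the test at 1 or more later times, and each of the 21 did so in 1 direction only. Of all 10215 genes tested, 4668 passed at 1 or more later times. At 12 h 0 were higher and 6 were lower, or 23.1% of the tested genes, where 6.08% of all 10215 genes tested passed, 2.76% higher and 3.32% lower. At an unadjusted p under 0.05 limma gave 1 higher and 11 lower at 12 h. No share of all genes was computed at this looser threshold. The unadjusted counts given here and below are therefore descriptions, and the adjusted shares are no measure for them. At 24 h 1 was higher and 3 were lower, against 7.21% of all genes, 3.97% higher and 3.24% lower. At 36 h 4 were higher and 6 lower, against 17% of all genes, 7.96% higher and 9.07% lower. At 48 h 6 were higher and 5 lower, against 21.2%, with 10.7% higher and 10.5% lower. At 72 h 10 were higher and 4 lower, or 53.8% of the tested genes, against 35.9% of all genes, 18.5% higher and 17.4% lower. Over the whole course the moderated F test of limma called 19 of 26 genes, against 48.9% of all genes. It did not call NEO1, PLXND1 and UNC5B (adjusted p = 0.176, 0.0954 and 0.173), which are among the 21. These 5 comparisons share the arrays of 0 h. A gene enters the test when it is bright at a single time, so counts over the tested genes are descriptions.

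The lower calls thus came first and the higher calls later. The median change of the tested genes was -0.19 at 12 h and 0.19 at 72 h on the log2 scale, where the median over all genes was 0.01 at both times. Changes of at least 2-fold were seen in 0 genes at 12 and 24 h, 2 at 36 h, 4 at 48 h and 3 at 72 h, against 0.499%, 0.705%, 1.67%, 2.22% and 4.1% of all genes. Genes whose 4 later arrays did not overlap with the 4 of 0 h numbered 9, 7, 8, 12 and 11 at the same times, against 8.58%, 10.7%, 17.4%, 20.8% and 31.1%. Among the 18 genes above background on all 24 arrays, 6 were higher and 2 lower at 72 h. Over all genes tested the shares were 18.5% higher and 17.4% lower. The count at 12 h fell to 2 without replicate 4 of 0 h or of 12 h, and to 3 without replicate 1 of 0 h or of 12 h.

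**Figure D2:**
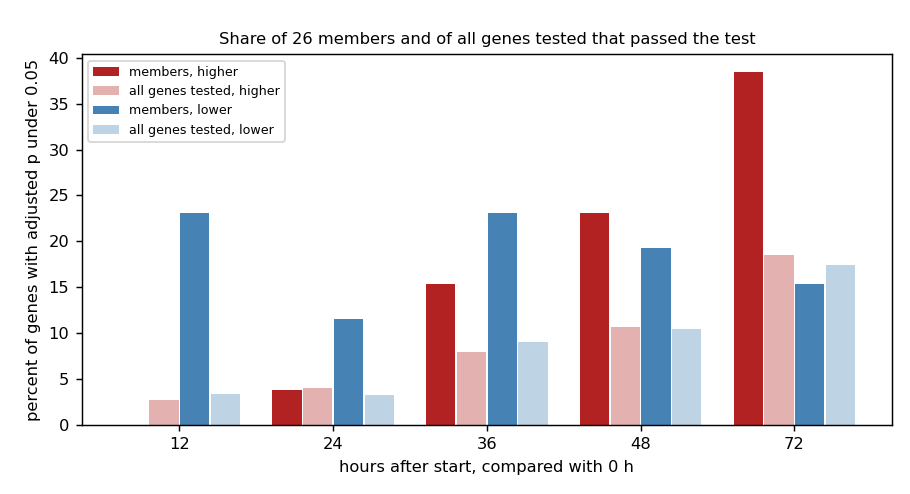
Percent of the 26 tested guidance genes and of all 10215 genes tested that passed the test against 0 h, higher and lower apart, by hours after the start. No guidance gene passed as higher at 12 h, when 6 passed as lower, and 10 passed as higher and 4 as lower at 72 h.

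Among the ligands, 4 of 14 rose and 3 fell at 72 h, where 18.5% of all genes tested were higher and 17.4% lower. SEMA5B, a membrane-bound semaphorin with thrombospondin repeats, showed the largest change of the tested genes. Its log2 signals on replicates 1 to 4 were 8.13, 8.50, 8.30 and 8.51 at 0 h, then 8.40, 8.05, 8.67 and 8.19 at 12 h and then 8.68, 8.82, 8.60 and 8.79 at 24 h. They were 8.99, 8.78, 8.82 and 9.56 at 36 h, then 9.65, 9.21, 9.57 and 9.98 at 48 h and then 9.86, 10.01, 9.86 and 9.99 at 72 h. From 24 h on, every array lay above all 4 arrays of 0 h. The mean went from 8.36 ± 0.18 (SD, n = 4) to 9.93 ± 0.08, a rise of 1.57 ± 0.16 (SE) or 2.97-fold (adjusted p = 2.33e-08 in limma). The rise was already 0.68 ± 0.16 at 36 h (adjusted p = 0.00348) and 1.24 ± 0.16 at 48 h (adjusted p = 2.31e-06), while the 0.36 at 24 h did not pass (adjusted p = 0.18).

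SLIT2, the slit that repels axons at the midline of the nervous system, fell at all 5 later times and was the one gene of the set to do so. Its signals on replicates 1 to 4 were 9.16, 8.15, 8.14 and 8.80 at 0 h, then 7.88, 7.92, 7.78 and 7.40 at 12 h and then 7.80, 7.25, 7.59 and 7.80 at 24 h. They were 7.54, 7.63, 7.60 and 7.29 at 36 h, then 7.13, 7.30, 7.17 and 7.03 at 48 h and then 7.34, 7.27, 7.03 and 7.05 at 72 h. The arrays of 0 h spread widely, with replicates 2 and 3 lower than the others, but all 4 lay above every later array. The fall was 0.82 ± 0.17 at 12 h (adjusted p = 0.00515), and at 48 h SLIT2 decreased by 1.40 ± 0.17 or 2.65-fold (adjusted p = 1.67e-06). The value at 72 h was -1.39 ± 0.17 (adjusted p = 7.42e-07). At 48 h 3 arrays and at 72 h 2 arrays were still above background, so these later values lie near the floor of the measurement.

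SEMA4A, a membrane-bound semaphorin also known from the immune system, was lower at 12 h and at 72 h. Its signals were 8.27, 8.02, 7.96 and 8.19 at 0 h and then 7.55, 7.74, 7.85 and 7.67 at 12 h, and all 4 arrays of 12 h were below those of 0 h. At 24 h they were 8.22, 8.01, 7.93 and 7.96, at 36 h 8.10, 8.37, 8.06 and 7.97, followed at 48 h by 7.87, 8.00, 7.84 and 7.61, overlapping with 0 h each time. At 72 h they were 7.33, 7.19, 7.18 and 7.22, below every array of every other time. The fall was 0.41 ± 0.10 at 12 h (adjusted p = 0.0172), a call lost without replicate 4 of either time or replicate 1 of either time, with adjusted p up to 0.0780. The fall at 72 h was 0.88 ± 0.10 or 1.84-fold (adjusted p = 2.78e-07), and that from 48 to 72 h alone was 0.60 ± 0.10 (adjusted p = 0.000453).

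SEMA3A, the secreted semaphorin that collapses growth cones through NRP1 and A-type plexins, fell and came back. Its signals were 8.86, 9.08, 9.36 and 9.16 at 0 h, then 8.46, 9.02, 8.50 and 8.67 at 12 h and then 8.32, 8.34, 8.30 and 8.41 at 24 h. They were 8.49, 8.22, 8.45 and 8.39 at 36 h, then 8.68, 8.22, 8.54 and 8.83 at 48 h and then 9.23, 9.22, 8.78 and 9.18 at 72 h. The arrays of 24, 36 and 48 h all lay below those of 0 h, and those of 72 h overlapped with 0 h. SEMA3A was lower by 0.77 ± 0.13 or 1.70-fold at 24 h (adjusted p = 0.000629), and its change from 48 to 72 h was 0.54 ± 0.13 (adjusted p = 0.0129). That return was not called without replicate 2 of 48 h (0.42, adjusted p = 0.0877) or without replicate 1 or 2 of 72 h. The difference of 72 h from 0 h was -0.01 ± 0.13 (adjusted p = 0.963). SEMA3A has SEMA3E and SEMA3D as its neighbours on chromosome 7. SEMA3D was dim, and SEMA3E passed at no time, with values between 9.47 and 10.59.

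SEMA4C, a ligand of PLXNB2, rose from 36 h on. It had 8.23, 8.67, 8.50 and 8.43 at 0 h, then 8.54, 8.78, 8.61 and 8.36 at 24 h, then 9.10, 9.01, 8.89 and 9.29 at 36 h, then 9.38, 9.29, 9.19 and 9.39 at 48 h and then 9.15, 9.39, 9.16 and 9.09 at 72 h. All arrays from 36 h on were above all arrays of 0 and 24 h. The rise was 0.61 ± 0.11 at 36 h (adjusted p = 0.000247), 0.85 ± 0.11 or 1.81-fold at 48 h (adjusted p = 2.39e-06) and 0.74 ± 0.11 at 72 h (adjusted p = 7.72e-06). From 24 to 36 h alone it rose by 0.50 ± 0.11 (adjusted p = 0.00547).

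SEMA4B, another membrane-bound semaphorin, moved the other way. Its signals were 9.38, 9.38, 9.18 and 9.41 at 0 h, then 8.81, 8.54, 8.72 and 8.70 at 36 h and then 8.82, 8.88, 8.81 and 8.81 at 72 h, and both later groups were below all arrays of 0 h. It fell by 0.64 ± 0.08 or 1.56-fold at 36 h (adjusted p = 6.07e-06) and by 0.51 ± 0.08 at 72 h (adjusted p = 3.42e-05). A second probe of SEMA4B stayed below background, at a mean of 6.33 against 8.99 for the one used. With the mean of both probes the falls at 12 and 48 h were no longer called, at -0.10 (adjusted p = 0.571) and -0.15 (adjusted p = 0.232). Averaging with a probe below background shrinks any change, so these fits cannot decide whether SEMA4B fell.

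SEMA6A, a membrane-bound semaphorin that signals through A-type plexins, was lower at 12 h only among the later times. It had 12.44, 12.12, 12.54 and 12.57 at 0 h and then 12.03, 11.89, 11.59 and 11.82 at 12 h, with no overlap. The fall at 12 h was 0.58 ± 0.15 or 1.50-fold (adjusted p = 0.0229), and it was not called without replicate 1 or 4 of 0 h or replicate 3 or 4 of 12 h (adjusted p up to 0.0865). At 48 h the signals were 12.93, 13.00, 12.83 and 12.48, which overlapped with 0 h, and the difference of 0.40 ± 0.15 did not pass (adjusted p = 0.0673). Between 24 and 36 h SEMA6A rose by 0.46 ± 0.15 (adjusted p = 0.0443), a call lost without any single array of 24 h other than replicate 1, without replicate 1, 2 or 3 of 36 h and without replicate 3 of 48 h (adjusted p up to 0.152).

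NTN1, the secreted netrin that attracts commissural axons through DCC, rose late. Its signals were 7.49, 6.96, 7.14 and 7.41 at 0 h, then 7.46, 7.30, 7.30 and 7.71 at 36 h, then 7.99, 7.65, 7.66 and 8.14 at 48 h and then 8.04, 7.59, 8.13 and 8.00 at 72 h. All arrays of 48 and 72 h lay above those of 0 h, of which 3 were above background. The rise was 0.61 ± 0.14 at 48 h (adjusted p = 0.00253) and 0.69 ± 0.14 or 1.62-fold at 72 h (adjusted p = 0.000406). SEMA6C, a further membrane-bound semaphorin, rose by 0.42 ± 0.15 at 72 h (adjusted p = 0.0285), from 2 arrays above background at 0 h to 4. That call was lost without replicate 2 or 4 of 72 h or replicate 1 or 3 of 0 h, with adjusted p up to 0.115.

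The remaining ligands passed at no time against 0 h. SEMA4D, which binds PLXNB1, lay between 9.99 and 10.52 on all arrays and was called by the F test (adjusted p = 0.00856). Its difference of 24 h from 12 h was 0.29 ± 0.09 (adjusted p = 0.0452), a call lost in the fits without any of 15 single arrays. SEMA3F, which binds NRP2, changed by -0.02 ± 0.15 at 72 h (adjusted p = 0.939). SEMA4F and SEMA6B had differences of 0.24 ± 0.13 (adjusted p = 0.151) and 0.27 ± 0.12 (adjusted p = 0.0731) at 72 h. A second probe of SEMA3E was below background on all arrays, and that of SEMA4F was above it on 2.

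**Figure D3:**
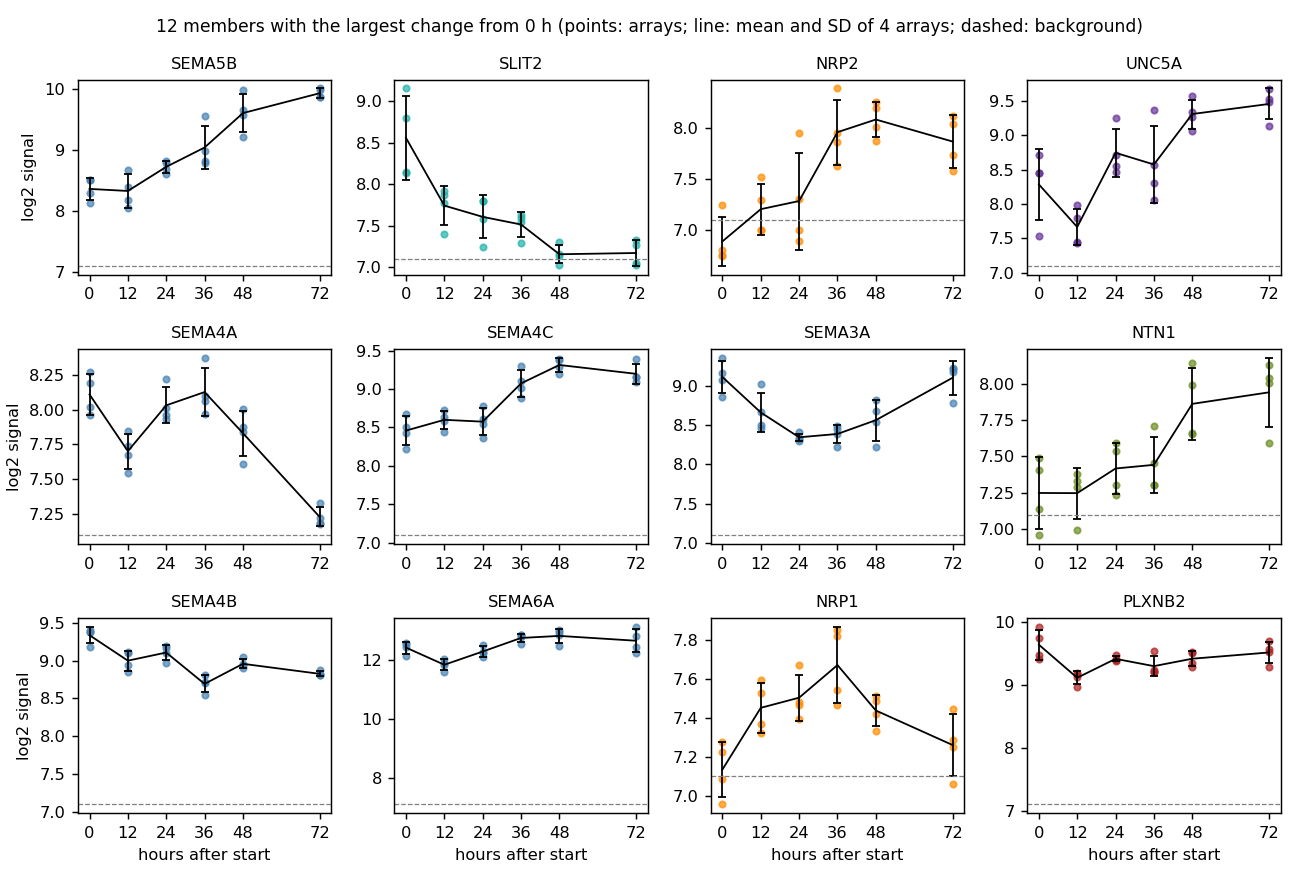
Log2 signal by hours after the start for the 12 guidance genes with the largest change from 0 h; points are single arrays, lines join the means with the SD of 4 arrays, and the dashed line is the background. SEMA5B, NRP2, UNC5A and NTN1 end above their 0 h arrays, SLIT2 lies below its 0 h arrays at every later time, and the 72 h arrays of SEMA3A overlap with those of 0 h.

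Among the receptors, 6 of 12 rose and 1 fell at 72 h, where 18.5% of all genes tested were higher and 17.4% lower. UNC5A, a netrin receptor of the repelling kind, rose late after a low point at 12 h. Its signals were 8.45, 8.72, 7.53 and 8.45 at 0 h, then 7.44, 7.45, 7.98 and 7.79 at 12 h and then 8.56, 9.25, 8.46 and 8.72 at 24 h. They were 8.56, 8.07, 8.31 and 9.37 at 36 h, then 9.34, 9.07, 9.27 and 9.58 at 48 h and then 9.68, 9.14, 9.49 and 9.53 at 72 h. The arrays of 48 and 72 h lay above all those of 0 h, where replicate 3 was lowest, and those of 12 h overlapped with 0 h. UNC5A was higher by 1.03 ± 0.24 at 48 h (adjusted p = 0.00251) and by 1.17 ± 0.24 or 2.26-fold at 72 h (adjusted p = 0.000356). The 12 h difference of -0.62 ± 0.24 did not pass (adjusted p = 0.127), whereas the rise of 1.08 ± 0.24 from 12 to 24 h did (adjusted p = 0.00985).

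UNC5D and UNC5B, the other tested UNC5 receptors, were higher at no time. UNC5D, which also binds FLRT proteins, fell by 0.41 ± 0.10 at 24 h, 0.39 ± 0.10 at 36 h and 0.46 ± 0.10 at 48 h (adjusted p = 0.0110, 0.00767 and 0.00137). At 72 h its difference of -0.23 ± 0.10 did not pass (adjusted p = 0.0771), and the 24 h call was lost without replicate 4 of 24 h (adjusted p = 0.0568). The 36 h call was lost without the 6 arrays that deviated alike (adjusted p = 0.0530). UNC5B, which also acts in vessels, lay near background, on 4 arrays above it at 0 h and 1 at 72 h. Its fall of 0.24 ± 0.09 at 72 h (adjusted p = 0.0480) was lost in the fits without any of 15 single arrays, with adjusted p up to 0.160. NEO1, the neogenin receptor of netrins and RGM proteins, lay between 9.58 and 10.03 and rose by 0.22 ± 0.08 at 72 h (adjusted p = 0.0400). That call was lost without replicate 1, 3 or 4 of 0 h or replicate 1, 2 or 4 of 72 h (adjusted p up to 0.126).

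The neuropilins are co-receptors of class 3 semaphorins and of VEGF. NRP2 had 6.75, 7.25, 6.76 and 6.81 at 0 h, then 7.29, 7.00, 7.01 and 7.52 at 12 h and then 7.30, 7.95, 7.00 and 6.89 at 24 h. Its signals were 7.95, 7.63, 7.87 and 8.38 at 36 h, then 8.19, 7.87, 8.01 and 8.25 at 48 h and then 7.58, 8.12, 8.04 and 7.73 at 72 h. All arrays from 36 h on were above those of 0 h, of which replicate 2 alone was above background. The measured difference was 1.06 ± 0.19 at 36 h (adjusted p = 0.000265), 1.19 ± 0.19 at 48 h (adjusted p = 4.74e-05) and 0.97 ± 0.19 at 72 h (adjusted p = 0.000233). The probe used was designed on an mRNA clone. A second NRP2 probe, above background on 17 arrays, had smaller differences, from a mean of 7.01 at 0 h to 7.62 at 48 h and 7.35 at 72 h. The other 2 probes were above background on 5 arrays each. Their means went from 6.76 and 6.58 at 0 h to 6.90 and 6.85 at 72 h.

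NRP1 rose and returned. Its signals were 6.96, 7.09, 7.27 and 7.22 at 0 h, then 7.54, 7.82, 7.85 and 7.46 at 36 h and then 7.25, 7.06, 7.28 and 7.45 at 72 h. The arrays of 36 h were above all those of 0 h, and those of 72 h overlapped with 0 h. Only 2 arrays of 0 h were above background, so the changes start near the floor of the measurement. NRP1 was higher by 0.53 ± 0.10 or 1.45-fold at 36 h (adjusted p = 0.000690), and the 0.13 ± 0.10 at 72 h did not pass (adjusted p = 0.372). At 12 h all 4 arrays lay above those of 0 h, but the difference of 0.32 ± 0.10 did not pass (adjusted p = 0.0718). The smaller rises of 0.37 at 24 h and 0.30 at 48 h (adjusted p = 0.0299 and 0.0384) were both lost without replicate 1 or 2 of 0 h, with adjusted p up to 0.111 at 24 h and 0.130 at 48 h. Other single arrays that ended them were replicates 1 and 3 of 24 h, and replicates 2, 3 and 4 of 48 h. A second NRP1 probe was above background on 10 arrays. Its means were 6.76 at 0 h, 7.23 at 12 h, 6.94 at 24 h, 7.26 at 36 h, 7.12 at 48 h and 6.93 at 72 h. With the mean of both probes the rise at 24 h was no longer called, at 0.27, while those at 36 and 48 h were kept. The second probe's means at 0 and 24 h lay below background, so that fit cannot decide whether NRP1 rose at 24 h.

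Plexins are the semaphorin receptors. PLXNB2 had 9.92, 9.48, 9.42 and 9.75 at 0 h, then 9.19, 9.17, 9.13 and 8.96 at 12 h and then 9.57, 9.70, 9.29 and 9.52 at 72 h, so that 12 h lay below 0 h and 72 h overlapped with it. It fell by 0.53 ± 0.11 or 1.44-fold at 12 h (adjusted p = 0.00420), and its difference at 72 h was -0.12 ± 0.11 (adjusted p = 0.403). The fall of 0.34 at 36 h (adjusted p = 0.0311) was lost without replicate 1 or 4 of 0 h or replicate 1, 2 or 4 of 36 h, with adjusted p up to 0.150. PLXNB1, the receptor of SEMA4D, rose by 0.43 ± 0.12 at 72 h (adjusted p = 0.00630), where replicate 2 read 9.58 and the other arrays 9.11 to 9.15.

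PLXNA3 and PLXNA1, partners of neuropilins, rose by 0.43 ± 0.10 (adjusted p = 0.00160) and 0.40 ± 0.14 (adjusted p = 0.0273) at 72 h. The PLXNA1 call was lost without replicate 3 of 0 h or replicate 2 or 4 of 72 h (adjusted p up to 0.113). PLXND1, the receptor of SEMA3E, lay near background and fell by 0.28 ± 0.09 at 48 h (adjusted p = 0.0353), a call lost without replicate 1 or 2 of 0 h or replicate 3 or 4 of 48 h (adjusted p up to 0.150). Thus 3 of 5 tested plexins were higher at 72 h and 0 were lower by limma, with 3 higher and 1 lower at an unadjusted p under 0.05. Of all genes tested, 18.5% were higher and 17.4% lower by the adjusted test.

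ROBO3, the ROBO receptor that lets commissural axons cross the midline, was the only ROBO gene bright enough to test. Its signals were 8.39, 8.46, 7.95 and 8.50 at 0 h, then 8.73, 8.56, 8.72 and 8.58 at 24 h, then 7.85, 7.56, 8.16 and 7.94 at 36 h and then 8.25, 8.65, 8.09 and 8.53 at 72 h. All arrays of 36 h lay below those of 24 h, and they overlapped with 0 h. It fell by 0.76 ± 0.14 from 24 to 36 h (adjusted p = 0.00172) and was lower by 0.44 ± 0.14 at 36 h against 0 h (adjusted p = 0.0306). The latter was lost without replicate 1, 2 or 4 of 0 h or replicate 1 or 2 of 36 h (adjusted p up to 0.124). At 72 h the difference was 0.05 ± 0.14 (adjusted p = 0.810).

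**Figure D4:**
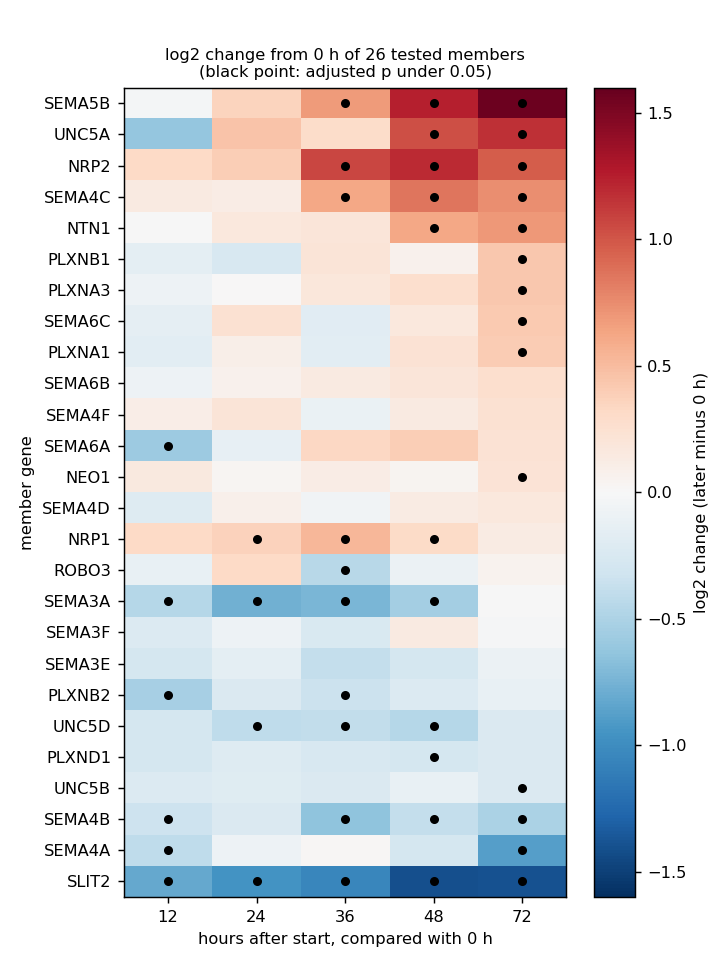
Log2 change from 0 h of the 26 tested guidance genes at 12, 24, 36, 48 and 72 h; red is higher, blue lower, and a black point marks an adjusted p under 0.05. SLIT2 is marked at all 5 times, and most marks for higher genes lie at 36 h or later.

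Between neighbouring times 7.69%, 23.1%, 3.85% and 7.69% of the tested guidance genes passed, in order of time. The shares of all genes tested were 6.57%, 14.4%, 5.27% and 6.21%, likewise highest from 24 to 36 h. From 12 to 24 h 2 genes rose, UNC5A and SEMA4D, and 0 fell in limma, against 6.57% of all genes, 3.32% higher and 3.25% lower. At an unadjusted p under 0.05, 8 were higher and 1 was lower, with no share of all genes computed. From 24 to 36 h SEMA4C, NRP2, PLXNB1 and SEMA6A rose and SEMA4B and ROBO3 fell, against 14.4% of all genes, 6.9% higher and 7.46% lower. The rise was 0.67 ± 0.19 for NRP2 (adjusted p = 0.0202) and 0.46 ± 0.12 for PLXNB1 (adjusted p = 0.0139), and the fall of SEMA4B was 0.41 ± 0.08 (adjusted p = 0.00341). NRP2 was lost here without replicate 3 or 4 of 24 h or replicate 1 or 4 of 36 h (adjusted p up to 0.102), and PLXNB1 without replicate 4 of 36 h (adjusted p = 0.0512). With the mean of its probes the SEMA4B fall was -0.12 (adjusted p = 0.370), a mean that the probe below background shrinks.

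From 36 to 48 h SEMA5B alone rose, by 0.56 ± 0.16 (adjusted p = 0.0364), against 5.27% of all genes, 2.9% higher and 2.37% lower. At an unadjusted p under 0.05, 10 were higher and 3 were lower, again with no share of all genes computed. With the replicate number as a block the count was 2. The SEMA5B call was lost without replicate 1, 2 or 3 of 36 h or replicate 1, 3 or 4 of 48 h (adjusted p up to 0.127). The count was then 0, whereas it was 4 without replicate 4 of 36 h and 3 without replicate 3 of 0 h. From 48 to 72 h SEMA3A rose and SEMA4A fell, against 6.21% of all genes, 2.69% higher and 3.51% lower. The count was 1 without replicate 2 of 48 h or replicate 1 or 2 of 72 h. The 12 to 24 h count was 4 without replicate 3 of 0 h. It was 1 without any single array of 12 or 24 h other than replicate 3, without replicate 1 or 3 of 36 or 48 h, and without replicate 1, 3 or 4 of 72 h.

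Of the 45 calls against 0 h, 31 held in each of the 24 fits that left out a single array, and 33 held without the 6 arrays that deviated alike. Without these 6 the counts at 12, 24, 36, 48 and 72 h were 4, 3, 7, 9 and 10. The 12 calls lost were SEMA3A and SEMA4B at 12 h, NRP1 at 24 and 48 h, PLXNB2, ROBO3 and UNC5D at 36 h, PLXND1 at 48 h, and NEO1, PLXNA1, SEMA6C and UNC5B at 72 h, with adjusted p from 0.0517 to 0.165. SEMA3A at 12 h, at -0.45 (adjusted p = 0.0434), and SEMA4B at 12 h, at -0.34 (adjusted p = 0.0164), were also lost without single arrays, with adjusted p up to 0.147 and 0.0739 without replicate 1 of 12 h. No call changed direction in any of these fits.

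The windows before the transcription start were read for 41 of the 48 genes found in the RefSeq table, 19 of them tested. The tested genes had a median of 28 CG and the dim genes a median of 12, against 11 over all windows. All windows include those of genes too dim to test, and no value was computed over bright genes alone. A trait of the guidance genes and an effect of the brightness filter therefore cannot be told apart here. The same holds for the words below. As a description, the SOX core letters AACAAT, on either strand, lay in 1 of the 19 windows, that of NEO1, against 9.19% of all windows of this length. GGCGCC lay in 6 of 19, against 16.1%, and CAGCTG, an E-box, in 2, against 13.8%. The UNC5A window shown above held GGCGCC and the SEMA4A window CAGCTG, and the SLIT2 and SEMA5B windows held none of the 3 words.

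Other genes of the pathway, from a list of 69 co-receptors, further ligands, adhesion molecules and intracellular partners, moved in both directions. Of these, 64 were measured and 51 tested, and at 72 h 16 were higher, 9 were lower and 26 did not pass, so that 49.0% passed against 35.9% of all genes. At 12 h 0 were higher and 2 lower by limma, or 3.92% against 6.08% of all genes, with 3 higher and 8 lower at an unadjusted p under 0.05. FLRT3, a ligand of UNC5 receptors, rose at least 7.71-fold at 72 h from below background on all 4 arrays of 0 h (adjusted p = 8.35e-10). RGMA, the ligand of NEO1, rose by 1.76 ± 0.14 (adjusted p = 3.03e-10), and CNTN2, an axonal adhesion protein, by 1.65 ± 0.34 (adjusted p = 0.000482), from 1 array above background at 0 h. The 4 arrays of CNTN2 at 72 h scattered widely, with an SD of 1.29 against 0.11 at 0 h.

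The largest falls of that list were in RND3, KDR and VASP. RND3 fell by 2.10 ± 0.23 (adjusted p = 9.39e-08). KDR, the VEGF receptor that pairs with neuropilins, fell at least 1.76-fold (adjusted p = 2.46e-09), to below background on all 4 arrays of 72 h. VASP, which promotes actin filament growth, fell by 0.68 ± 0.19 (adjusted p = 0.00568).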

How the data were processed

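Log2 values of 24 Illumina HumanHT-12 v4 arrays were used as deposited by the authors, 37900 measurements between 5.57 and 15.51. The labels and file header do not state the normalization or background steps. A second table, whose 48 columns match no sample label, was not used. Platform annotation gave 26221 measurements 1 symbol, 7 several, and 11672 were not listed. Identical values repeated over several probes were counted once, which left 32487, and 4 tested members have such a value.

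Genes above background on at least 4 arrays were tested with a one-way model in limma 3.58.1 (lmFit, eBayes; R 4.3.3) with 18 residual degrees of freedom. P-values are two-sided and Benjamini-Hochberg adjusted over the 10215 genes within each comparison at 0.05. The number of arrays limits the precision. Where all 4 arrays of a time were below background, an "at least" fold is computed against the background. The code was tested on simulated data. Replicate numbers went together at 72 against 0 h (correlations of deviations 0.11 to 0.35) and 48 against 36 h (0.41 to 0.58), but not in the other comparisons.

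Every member past a test is named, the 12 with the largest change are shown by array, and up to 3 higher and 3 lower partner genes are named. Members, lists and tests were chosen with earlier results of these data known.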

Additional observations from a re-analysis of the deposited data

Results flagged for a closer look

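In 8 of 156 sets of 4 arrays of a time, taken over the 26 tested genes and 6 times, a single array stood apart from the other 3 by more than Dixon's 95% critical value. Chance alone puts about 1 set in 20 past this value. NRP2 at 0 h read 7.25 on replicate 2 and 6.75 to 6.81 on the others. PLXNB1 at 72 h read 9.58 on replicate 2 and 9.11 to 9.15 on the others. SEMA3A at 72 h read 8.78 on replicate 3 and 9.18 to 9.23 on the others. PLXNB2 at 36 h read 9.54 on replicate 3 against 9.20 to 9.25, SEMA4B at 0 h 9.18 on replicate 3 against 9.38 to 9.41, and SEMA4D at 24 h 10.20 on replicate 3 against 10.40 to 10.43. NEO1 at 12 h read 9.94 on replicate 1 against 9.81 to 9.83, and PLXND1 at 12 h 7.15 on replicate 1 against 7.01 to 7.03.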

How the results depend on the processing

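None of the 45 calls against 0 h changed direction under any alternative that tested it. With the filter at 20 arrays above background, 39 of them were tested and kept, since NRP2, PLXND1, SEMA6C and UNC5B left the test, and 9, 9 and 11 genes passed at 36, 48 and 72 h. The replicate number as a block kept all 45. It gave 13 genes at 48 h and 15 at 72 h, 10 higher and 5 lower, against 11 and 14 without it. It gave 4 genes for 24 against 12 h and 2 for 48 against 36 h, where the model without it gave 2 and 1. No filter, averaged probes and array weights lost 2, 3 and 5 calls. Array weights gave 4 genes for 24 against 12 h and 8 for 48 against 36 h. Centring, quantile normalization, the lower background of 6.83 and the trended robust fit lost 0 of them. With replicates 1 and 2 only, the counts at 12, 24, 36, 48 and 72 h against 0 h were 1, 0, 6, 5 and 8, those for 24 against 12 h, 36 against 24 h and 48 against 36 h were 1, 0 and 0, and the F test called 12. With replicates 3 and 4 only, they were 0, 1, 5, 6 and 8, then 0, 1 and 0, with 0 for 72 against 48 h and 10 by the F test. Leaving out a single array gave 2 to 8 genes at 12 h, 3 to 4 at 24 h, 8 to 11 at 36 h, 9 to 12 at 48 h and 10 to 15 at 72 h. For the neighbouring times it gave 1 to 4, 4 to 7, 0 to 4 and 1 to 2, and 19 to 20 by the F test. Without the 6 arrays that deviate alike, chosen after seeing the data, 24 against 12 h gave 1 and 48 against 36 h gave 4, and a term for them gave 6 and 4. The smaller fits hold fewer arrays. The share of all genes that passed in each of these fits is not given, so the counts are descriptions only. The 22 dim genes give upper bounds only.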
